A study of Mus musculus with 12 samples.

Results

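Heavy polysome RNA of the neonatal mouse testis was compared between 4 and 1 days post partum (dpp). The comparison takes the 6 polysome arrays of a series of 12, 3 at each age, and was made across 45037 probe sets, which leaves out the 64 Affymetrix controls. All animals were CD-1 mice, an outbred stock, with no transgene or drug group named in the labels, and every testis was washed in buffer with cycloheximide, which holds ribosomes on mRNA. Cytoplasmic extract was spun through a sucrose gradient and collected in 14 fractions, of which 7 to 13 made the polysome pool and 1 to 3 the non-translating pool that the other 6 arrays measured. The labels call the arrays of a group biological replicates without tying them to animals, and p-values here measure only how far these samples spread. Whole testis went into the gradients, and each array carries RNA of germ cells and of all the somatic cells around them.

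An mRNA that carries many ribosomes sinks deep into a sucrose gradient, and the heavy polysome pool therefore holds the mRNAs that carried many ribosomes each. In the days after birth the germ cells of the mouse testis, prospermatogonia that have rested in the cord centre, resume division, move to the basement membrane and become spermatogonia. Some of these start on the retinoic acid driven path to differentiation. Sertoli cells divide around them, while fetal-type Leydig cells, peritubular cells, vessels and macrophages lie outside the cords. By its title, the study asked about mRNAs whose translation starts in this window.

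The deposited value of a probe set is a signal intensity, and all changes below are differences of mean log2(signal + 1), 4 dpp minus 1 dpp, with the standard error of the fit after ± and n = 3 arrays per group. That scale understates the change of dim genes. A probe set is said to have risen, fallen or been called when its Benjamini-Hochberg adjusted p in limma was under 0.05. A fold or level on polysomes is relative to the rest of the same array, since each array was made from the same amount of RNA. Among the 6 polysome arrays, 3 stood apart in the RNAs that are spiked in before labelling. The geometric mean signal of these was 409.5 and 278 on 4 dpp replicates 1 and 3 and 998 on 1 dpp replicate 3, against 2175 to 5887 on the other 9 arrays of the series. Changes are therefore also given among these low-spike arrays (4 dpp replicates 1 and 3 against 1 dpp replicate 3) and among the others (4 dpp replicate 2 against 1 dpp replicates 1 and 2), with no test in either. The signal of Actb at its 3′ end over that at its 5′ end was 22.7 ± 8.90 (SD, n = 3) at 1 dpp and 5.56 ± 1.16 at 4 dpp on polysomes, with no overlap (two-sided exact permutation test, p = 0.1, the smallest that 3 against 3 arrays allow). For Gapdh it was 9.11 ± 5.94 and 2.82 ± 0.61, also without overlap (p = 0.1 by the same exact test). For Pcx, a further control transcript, it was 4.13 ± 0.51 and 4.23 ± 0.49 (p = 0.7 by the same exact test). Pearson correlations between replicates, on the log2 scale, ran from 0.92 to 0.99 at 1 dpp and from 0.88 to 0.96 at 4 dpp. They leave out dim probe sets and cover the 27022 at or above the filter level given below.

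Between 1 and 4 dpp, Tex11 of meiosis and Asz1 of the germ granule rose on polysomes with the smallest p-values, by 15.5-fold and 10.6-fold. In both genes 1 of the 3 polysome signals at each age equalled the mean of the other 2. Their p-values thus do not rest on 3 independent values per group. All 1 dpp signals of Tex11 were dim, and its rise was 8.48-fold with them raised to 16.4, the filter level for dim probe sets used here. The calls towards 4 dpp also held 12 of 72 respiratory chain genes, 16 of 76 mitochondrial ribosomal proteins and 5 of 46 cytosolic ribosomal proteins, with 0 lower in each of these lists. The calls towards 1 dpp held the surface proteins Gpc1, Thy1, Ngfr and Aplnr, which fell by 4.00-fold, 3.80-fold, 3.19-fold and 4.11-fold. In all, 767 of the 45037 probe sets were called (1.7%), 432 higher (0.959%) and 335 lower (0.744%), and 7465 had an unadjusted p under 0.05. With each of 18193 genes represented by its brightest probe set with a single symbol, 367 genes were called (2.02%), 183 higher and 184 lower (1.01% each). The called genes that rose had a median change of 1.59 and those that fell of -1.21, and 340 of the 367 differed by at least 2-fold. The 3 arrays of 1 age lay beyond those of the other in every called gene, and the sign within the low-spike arrays and within the others follows from that. The medians were 1.49 and -1.09 among the low-spike arrays and 1.31 and -1.21 among the others. Over all genes, 7.73% were higher and 12.7% lower without overlap. In 154 of the 183 genes that rose, 1 dpp replicate 3 was the array of its age nearest to 4 dpp, and in 149 of them 4 dpp replicate 2 was the array nearest to 1 dpp.

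The number of calls depended on single arrays and on the spread shared by the 12 arrays. Without 1 dpp polysome replicate 1 or replicate 2, 2 probe sets were called in each case, and without 4 dpp polysome replicate 1, 6 were. Without 1 dpp replicate 3, 2286 were called, without 4 dpp replicate 2, 4376, and without 4 dpp replicate 3, 398. The non-translating arrays entered only through the spread, and leaving each out gave between 36 (1 dpp replicate 3) and 902 calls (4 dpp replicate 1), with 74 without 4 dpp replicate 2. A fit to the 6 polysome arrays alone called 2 probe sets, with 5565 at an unadjusted p under 0.05. A fit with the mean 3′ to 5′ log2 difference of the Actb and Gapdh controls as a covariate called 3, and a fit without the 3 low-spike arrays called 35. Tex11 and Asz1 were called under each of the 25 alternative settings. The settings all drew on the same signals of these 2 genes, in which 1 per polysome group equalled the mean of the other 2. Their calls are therefore no check on that small spread. Of the 67 named genes that were called, 67 stayed called with low spike level as a block, a fit that keeps the low-spike arrays. Leaving those arrays out leaves 1 polysome array at 4 dpp, so the number of named genes that stayed called is not given there. With the 6 arrays alone 2 stayed, 3 with the covariate, and 2 or 3 without 1 dpp replicate 1 or 2 or 4 dpp replicate 1. Without 1 dpp replicate 3 or 4 dpp replicate 2 on polysomes 66 and 67 stayed. Without those 2 arrays of the non-translating pool 9 and 13 stayed.

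**Figure D1:**
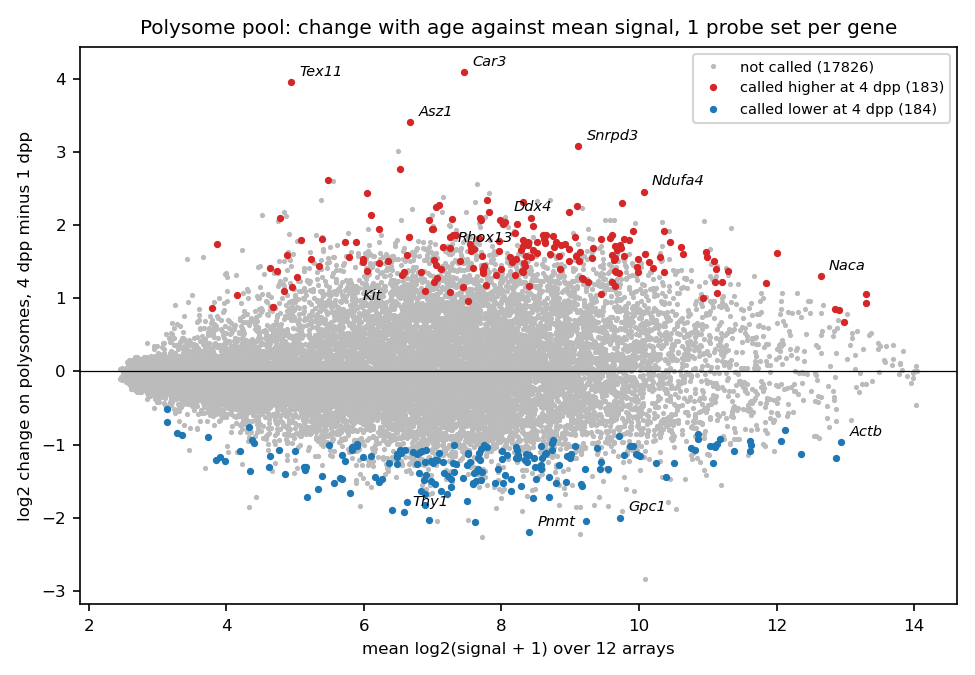
Change on polysomes (log2, 4 dpp minus 1 dpp) against mean log2(signal + 1) over the 12 arrays, a point for each of 18193 genes by its brightest probe set. Red points are the 183 genes called higher and blue points the 184 called lower at an adjusted p under 0.05, and grey points are not called. Car3, Tex11, Asz1 and Snrpd3 lie at the top, Ddx4 and Kit among the genes not called.

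**Figure D2:**
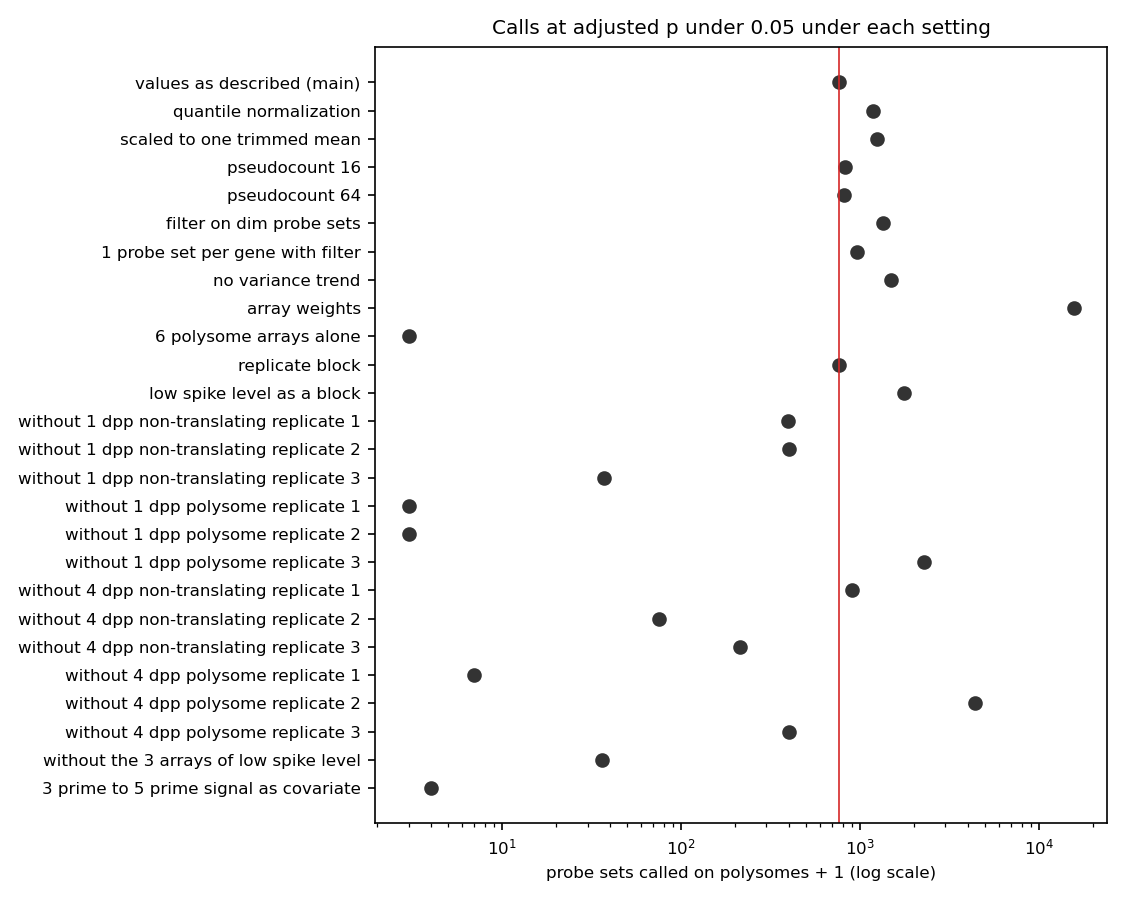
Number of probe sets called on polysomes under the reported setting and 25 alternatives, plotted as the number plus 1 on a log axis, with a red line at the reported 767. Counts run from 2, with the 6 polysome arrays alone or without 1 dpp polysome replicate 1 or 2, to 15657 with array weights.

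Tex11, an X-linked gene whose protein works in meiotic recombination, had the rise with the smallest p-value. Its signal was 7.89, 9.09 and 8.49 on the 3 polysome arrays at 1 dpp and 137, 146 and 156 at 4 dpp. Every 4 dpp array lay far above every 1 dpp array. In each of the 4 groups of both pools, 1 of the 3 signals equalled the mean of the other 2. The spread, standard errors and p-values of Tex11 therefore do not rest on 3 independent values per group. How these values arose was not tested. At 1 dpp all 3 polysome arrays lay under 16.4, the 40th percentile of mean signal, the filter level for dim probe sets. The change was 3.96 ± 0.20, or 15.5-fold (limma, adjusted p = 1.55e-06), and 3.08, or 8.48-fold, with the dim arrays raised to the filter level. It was 3.95 among the low-spike arrays and 3.96 among the others, and over the 6 fits that each left out a polysome array it stayed between 3.91 and 4.00. In the non-translating pool Tex11 gave 17.0, 14.4 and 19.6 at 1 dpp and 34.6, 29.7 and 39.5 at 4 dpp, a smaller change of 0.99. The difference between the pools' changes was 2.97 ± 0.28 (interaction term in limma, adjusted p = 0.00371), and this probe set was the only 1 of 45037 called for that difference (0.00222%). With every signal under the filter level raised to it, in both pools, the difference was 2.16, with no test. With the 3′ over 5′ covariate 0 were called for it.

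Asz1, also called Gasz, encodes a germ cell protein of the mitochondrial surface that the piRNA pathway needs to silence transposons. Its signal was 30.9, 36.5 and 33.7 at 1 dpp and 299, 369.6 and 440.5 at 4 dpp, again with a wide gap between the ages. In both polysome groups, and at 1 dpp in the non-translating pool, 1 signal equalled the mean of the other 2. The standard errors and p-values of Asz1 therefore do not rest on 3 independent values in those groups. The change was 3.40 ± 0.25, or 10.6-fold (adjusted p = 0.000109), 3.39 among the low-spike arrays and 3.42 among the others. In the non-translating pool it was 0.79. The difference of 2.61 ± 0.36 between the pools did not pass (adjusted p = 0.124). A second, dimmer probe set of Asz1 had a change of 0.66 and was not called (adjusted p = 0.364). The 100 bases before the gene's start are shown because they hold the NRF1 motif (GCGCA, any base, then GCGC) at 66 and at 44 bases before the start, in capitals (RefSeq, GRCm38.p6, read on the gene's strand).
Asz1 (chr6:18109062-18109161, minus strand): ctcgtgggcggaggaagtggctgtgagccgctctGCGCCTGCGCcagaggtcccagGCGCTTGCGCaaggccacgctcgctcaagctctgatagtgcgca

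The lists around these genes held no other call. Of 28 measured genes of the germ granule and piRNA pathway, Asz1 was called higher and 0 lower, where 1.01% of all genes were called in each direction. The median change was 0.59 on polysomes and 0.40 in the non-translating pool, against -0.05 and -0.01 over all genes, and 25 of 28 were above 0. Of 30 genes of meiosis and the spermatocyte, Tex11 was called higher and 0 lower, with medians of 0.46 and 0.31. Ddx4, the germ cell RNA helicase Vasa, gave 99.3, 62.7 and 376 at 1 dpp and 655, 272 and 1083 at 4 dpp. The ages overlapped, since 1 dpp replicate 3 was above 4 dpp replicate 2, and the change of 2.11 ± 0.60 did not pass (adjusted p = 0.0916). With low spike level as a block it was 1.47 (adjusted p = 0.0282). Dazl, a germ cell RNA-binding protein that promotes translation, gave 160.2, 128 and 1087 and 1365, 462 and 2622, in the same pattern over the arrays, with a change of 2.07 ± 0.84 (adjusted p = 0.234). Both genes were highest on the low-spike array or arrays of each age.

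Among 22 measured genes of spermatogonial differentiation, 2 rose and 1 fell (1.01% of all genes in each direction), and the median change was 0.67 on polysomes and 0.80 in the non-translating pool. Rhox13, an X-linked homeobox gene of germ cells, gave 142, 135 and 147 at 1 dpp and 497, 456 and 425 at 4 dpp. The 3 arrays of each age lay close together and the ages were far apart, with a change of 1.69 ± 0.32, or 3.22-fold (adjusted p = 0.0299). It was 1.63 and 1.71 among the low-spike and the other arrays, and 1.18 in the non-translating pool, not called. Lmo1, a LIM-only transcriptional cofactor, gave 53.9, 68.7 and 42.3 and 227, 137 and 119.7. It rose by 1.50 ± 0.33 (adjusted p = 0.0404), and its change in the non-translating pool, 1.62, was of like size. Ccnd2, a D-type cyclin, went the other way, from 4906, 5295 and 5233 to 1696, 2109 and 2841. Every 4 dpp array was below every 1 dpp array, and the change was -1.25 ± 0.28 (adjusted p = 0.0442). Of 6 other Ccnd2 probe sets above the filter level, 5 were also lower, 3 of them called, and 1 was higher, by 0.55.

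The receptor Kit, which marks differentiating spermatogonia, gave 38.6, 30.5 and 93.9 at 1 dpp and 143, 22.2 and 226 at 4 dpp. The lowest array of all was 4 dpp replicate 2, so the ages overlapped, and the change of 0.89 ± 0.71 did not pass (adjusted p = 0.593). It was 0.93 among the low-spike arrays and -0.61 among the others. Stra8, which retinoic acid induces in germ cells, gave 80.9, 56.4 and 139 and 338, 126 and 455. Here too 1 dpp replicate 3 was above 4 dpp replicate 2 (1.63 ± 0.48, adjusted p = 0.101), and the non-translating change was 1.39. The transcription factors Sohlh1 and Sohlh2, which act early in spermatogonial differentiation, had changes of 0.56 ± 0.29 and 0.73 ± 0.34 on polysomes. Neither passed (adjusted p = 0.372 and 0.312).

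Among 33 genes that mark undifferentiated spermatogonia and prospermatogonia, 0 rose and 2 fell (1.01% of all genes in each direction), with a median of -0.21. Gfra2, a co-receptor for neurturin, gave 279, 429 and 309.5 at 1 dpp and 101, 109 and 147 at 4 dpp. The ages did not overlap, and it fell by 1.50 ± 0.28 on the log2 scale (adjusted p = 0.0281). The other 3 probe sets of Gfra2 above the filter level had changes of -0.24, -0.10 and -1.31, and none was called. Pax7, a paired box gene of a rare spermatogonial subset, was dim, with 26.7, 25.9 and 24.8 and 9.29, 13.3 and 10.4. All 3 arrays at 4 dpp lay under the filter level, and its change was -1.18 ± 0.20 (adjusted p = 0.0263), or -0.63 with those arrays raised to that level. Zbtb16, also called Plzf and needed for spermatogonial renewal, had a change of -0.98 ± 0.38 (adjusted p = 0.206). Gfra1, the co-receptor for GDNF, had a change of -1.13 ± 0.49 (adjusted p = 0.27). Id4, a marker of spermatogonial stem cells, had a change of 0.19 ± 0.71 (adjusted p = 0.929), while its other 2 probe sets above the filter level had the opposite sign (-1.10 and -1.16, not called). Dnmt3l, a cofactor of de novo DNA methylation in prospermatogonia, gave 21.3 to 33.0 at 1 dpp and 18.1 to 18.96 at 4 dpp, and Lin28a, an RNA-binding protein of immature germ cells, 16.4 to 29.8 and 16.6 to 48.0. Both ranges lay near the filter level, and neither gene was called (adjusted p = 0.338 and 0.424).

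The germ cell lists were also summed on each array. The summed signal of the 33 undifferentiated markers was 6162 to 8652 at 1 dpp and 5405 to 10797 at 4 dpp, and that of the 22 differentiation markers 9024 to 12714 and 6375 to 12936. Both ranges overlapped. In these lists, in the order given, 1, 0, 2 and 6 members lay under the filter level on all 3 arrays at 1 dpp. The counts at 4 dpp were 1, 0, 0 and 4. In RNA of a whole organ, more cells of a type and more RNA per cell cannot be told apart, here and in every result that follows.

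**Figure D3:**
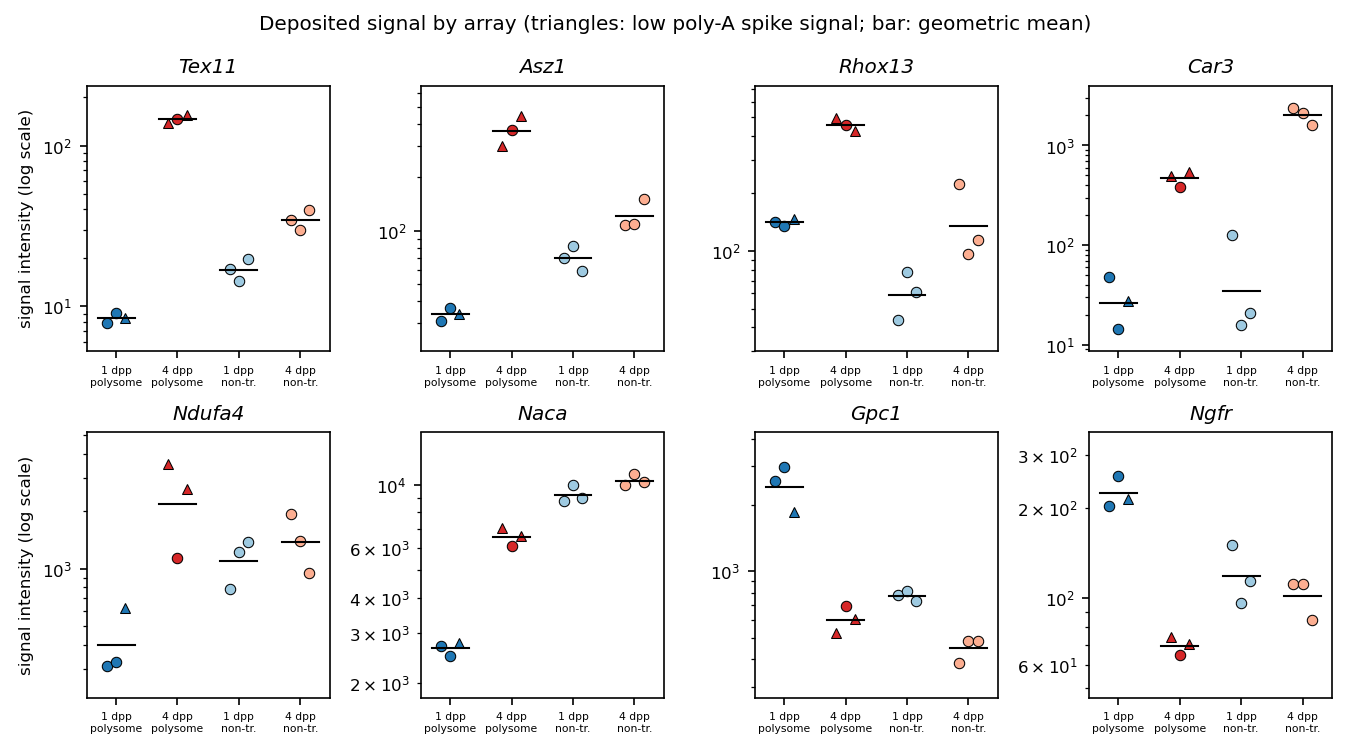
Deposited signal of 8 genes on each of the 12 arrays, on log axes, by age and pool, with a bar at the geometric mean of each group. Triangles mark the 3 polysome arrays of low spike signal. For Tex11, Asz1, Rhox13 and Naca the arrays of each polysome group lie close together and the ages far apart, while for Ndufa4 the arrays spread within both ages. For Tex11 and Asz1, 1 polysome signal at each age equals the mean of the other 2.

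Car3, a cytosolic carbonic anhydrase that is abundant in muscle and fat, had the largest change of any called gene. Its signal was 47.4, 14.4 and 27.3 at 1 dpp and 493, 381 and 545 at 4 dpp on polysomes. The ages did not overlap, although the 1 dpp arrays differed widely, and 1 dpp replicate 2 lay under the filter level. The change was 4.09 ± 0.62, or 17.0-fold (adjusted p = 0.0235). In the non-translating pool it was larger, 5.80, from 127, 15.8 and 20.7 to 2355, 2138 and 1599.9. All 3 probe sets called there (0.00666%) belong to Car3. Of the other 2 Car3 probe sets above the filter level, 1 had a change of 1.50 on polysomes (adjusted p = 0.0521) and 1 of -0.02. The 3 probe sets thus differed from each other in size.

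Nuclear genes of the mitochondrial respiratory chain, which makes ATP from the oxidation of nutrients, were among the genes that rose. Of 72 measured, 12 were called higher and 0 lower, where 1.01% of all genes were called in each direction. In 40 (55.6%) all 3 arrays at 4 dpp lay above all 3 at 1 dpp, against 7.73% of all genes. The median change was 0.95 on polysomes, 0.90 among the low-spike arrays and 0.65 among the others, and 0.08 in the non-translating pool. The 12 were Ndufa8, Ndufab1, Ndufb10 and Ndufs4 of complex I, Uqcrh of complex III, Ndufa4, which sits in complex IV, and Atp5g1, Atp5g2, Atp5g3, Atp5j, Atp5l and Atp5o of the ATP synthase. Ndufa4 gave 309.7, 327 and 625 at 1 dpp and 3527, 1145 and 2606 at 4 dpp. The ages did not overlap, and within each the low-spike arrays were highest. The change was 2.46 ± 0.43, or 5.49-fold (adjusted p = 0.0269), with 0.32 in the non-translating pool. Ndufab1, the mitochondrial acyl carrier protein, gave 275, 279 and 532 and 2656, 858 and 2184 and rose by 2.31 ± 0.41 (adjusted p = 0.027). Its arrays followed the same order, and its second probe set had a change of 0.45, not called. Ndufs4 rose by 1.99 ± 0.33 and Atp5l by 1.92 ± 0.32 (adjusted p = 0.0257 and 0.0252). Cox7b2, the testis form of a complex IV subunit, is not in the list. It gave 9.40, 11.8 and 16.8 at 1 dpp and 122, 38.9 and 110.3 at 4 dpp, rose by 2.61 ± 0.43 (adjusted p = 0.0255) and had a change of 1.94 in the non-translating pool. Of its 1 dpp polysome arrays 2 lay under the filter level, and with these raised to it the change was 2.22.

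The proteins of the mitochondrial ribosome, which makes the chain's mitochondrially encoded subunits, moved in the same direction. This list was drawn up after values had been seen, so its counts are a description. Of 76 genes, 16 were called higher and 0 lower (1.01% of all genes in each direction), 41 (53.9%) were higher without overlap (7.73% of all genes), and the median was 0.99 (0.84 and 0.70 among the low-spike and the other arrays), against 0.10 in the non-translating pool. Mrpl42 gave 184, 208 and 192 at 1 dpp and 1081, 545 and 575 at 4 dpp. Its 1 dpp arrays were alike, every 4 dpp array was well above them, and it rose by 1.84 ± 0.34 (adjusted p = 0.0276). Mrpl1 rose by 1.94 ± 0.38, Mrpl50 by 1.86 ± 0.37 and Mrpl20 by 1.74 ± 0.35. Another probe set of Mrpl1 had a change of 0.09 and another of Mrpl50 one of 1.02, neither called. Of the mitochondrially encoded mRNAs a single gene, ND5 of complex I, had a probe set with a single symbol. It gave 654, 979 and 414 and 728, 1768 and 349, which overlapped (0.25 ± 0.55, adjusted p = 0.873). Atp23, a mitochondrial protease of ATP synthase assembly, gave 23.3, 31.3 and 56.7 and 333, 97.7 and 215 and rose by 2.43 ± 0.45 (adjusted p = 0.0276). Hspe1, the co-chaperonin of mitochondria, gave 898, 839 and 1018 and 3797, 1885 and 1979 and rose by 1.40 ± 0.27 (adjusted p = 0.0299). Hspe1 was the only 1 of 40 genes of stress responses and chaperones that was called.

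**Figure D4:**
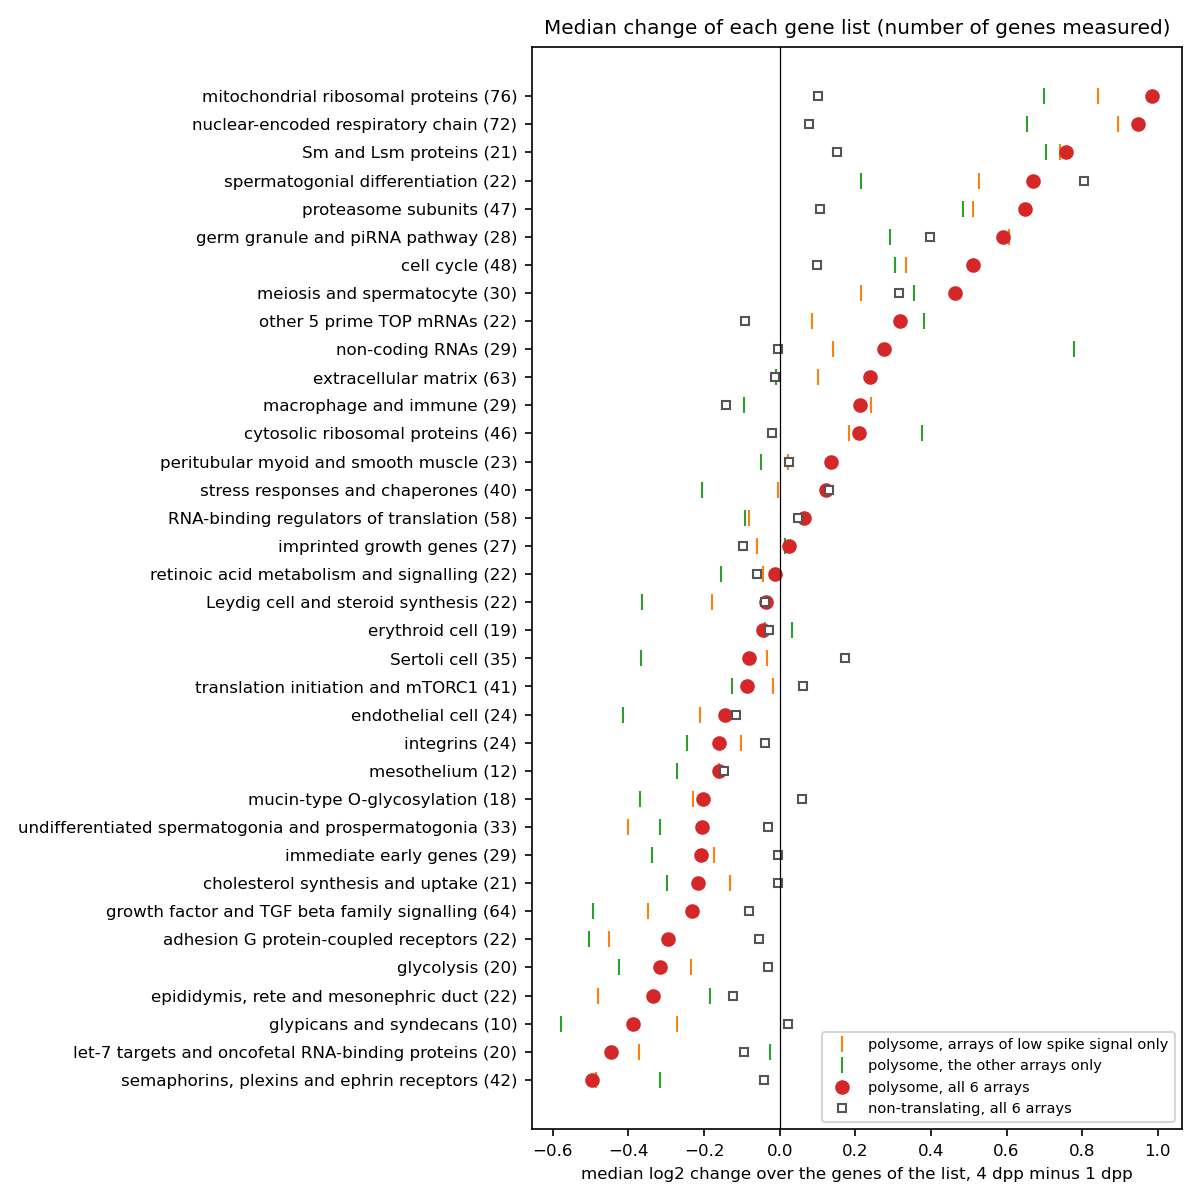
Median log2 change (4 dpp minus 1 dpp) of 36 gene lists, with the number of genes measured after each name. Red circles show the polysome pool over all 6 arrays, orange and green ticks the low-spike and the other polysome arrays alone, and open squares the non-translating pool. Mitochondrial ribosomal proteins and the respiratory chain have the highest medians and the semaphorin, plexin and ephrin receptor genes the lowest.

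Subunits of the proteasome, the protease that degrades ubiquitin-tagged proteins, formed another list chosen after values had been seen. Of 47, 6 were called higher and 0 lower (1.01% of all genes in each direction), and the median was 0.65 (0.51 and 0.49 among the low-spike and the other arrays), with 0.11 in the non-translating pool. Psmb2, a subunit of the catalytic core, gave 196, 222 and 439.7 at 1 dpp and 1325, 667 and 2009 at 4 dpp. The ages did not overlap, and it rose by 2.18 ± 0.40 (adjusted p = 0.0281). Psma7 and Psma1, also of the core, rose by 1.79 ± 0.36 and 1.80 ± 0.40, and Psmd8 of the regulatory particle by 1.87 ± 0.38. A second probe set of Psma7 was also called, at 2.24. Of 21 genes of the Sm and Lsm proteins, the rings that bind spliceosomal and other small RNAs, 2 were called higher (1.01% of all genes), with a median of 0.76. Snrpd3, of the Sm ring, gave 78.2, 114 and 179 at 1 dpp and 849, 549 and 2103 at 4 dpp. It rose by 3.08 ± 0.52, or 8.44-fold (adjusted p = 0.0257), while its other 2 probe sets above the filter level had the opposite sign (-0.35 and -0.86, not called). Lsm8, of the nuclear Lsm ring, rose by 1.91 ± 0.42 (adjusted p = 0.0412).

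The other genes with the largest rises had various roles. Tmbim4, a transmembrane protein of the BAX inhibitor motif family, gave 24.7, 18.3 and 53.3 at 1 dpp and 388, 65.4 and 325 at 4 dpp and rose by 2.76 ± 0.58 (adjusted p = 0.0361). Its 4 dpp replicate 2 lay close above the 1 dpp arrays, and the change was 2.71 among the low-spike arrays against 1.58 among the others. Rpa3, the smallest subunit of the replication protein A that coats single-stranded DNA, gave 102, 86.5 and 141 and 950.2, 375 and 445 and rose by 2.32 ± 0.39 (adjusted p = 0.0257). Eef1e1, a member of the multi-synthetase complex that charges tRNAs, gave 103, 104 and 315 and 1294, 418 and 707. It rose by 2.26 ± 0.47 (adjusted p = 0.0354), and its 1 dpp replicate 3 stood well above the other 1 dpp arrays. Plgrkt, a plasminogen receptor, rose by 2.28 ± 0.45, Smim8, a small membrane protein, by 2.34 ± 0.45, and Thyn1 by 2.17 ± 0.37. The other 2 Thyn1 probe sets above the filter level had changes of 0.59 and -0.11, neither called. Of 48 cell cycle genes, 1 was called higher and 0 lower (1.01% of all genes in each direction). The median was 0.51 on polysomes and 0.10 in the non-translating pool. The called gene, the mitotic kinesin Kif20a, gave 39.4, 42.0 and 78.7 and 226, 117 and 297 and rose by 1.95 ± 0.37 (adjusted p = 0.0291). Fdps, the farnesyl diphosphate synthase of the sterol pathway, gave 74.4, 87.7 and 127 and 360.1, 253 and 686 and rose by 2.07 ± 0.43 (adjusted p = 0.0354), with -0.14 in the non-translating pool. It was the only called gene of 21 of cholesterol synthesis and uptake, whose median was -0.22.

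Ribosomal protein mRNAs belong to the mRNAs that begin with a 5′ oligopyrimidine (TOP) tract, a start sequence through which mTOR sets translation with growth. Of 46 cytosolic ribosomal protein genes with a single-symbol probe set, 5 were called higher and 0 lower (1.01% of all genes in each direction). In 16 (34.8%) the 4 dpp arrays all lay above the 1 dpp arrays, and in 0 below (7.73% and 12.7% of all genes). The median was 0.21 on polysomes (0.18 and 0.38 among the low-spike and the other arrays) and -0.02 in the non-translating pool. Rps3a1 gave 5364, 4273 and 6568 at 1 dpp and 11228, 10250.3 and 11700.3 at 4 dpp, with no overlap, and rose by 1.05 ± 0.17 (adjusted p = 0.0235). Rpl22l1, a paralog of Rpl22, rose by 1.21 ± 0.26, Rpl7a by 0.94 ± 0.20 and Rps9 by 0.86 ± 0.16. Rpl11 was called as well. Genes of this family have many near-identical processed copies, and a probe set can also bind those. Of 22 other TOP mRNAs, Naca was called. It encodes a subunit of the complex that meets nascent chains at the ribosome. Naca gave 2708, 2488 and 2778 and 7039, 6065 and 6614, tight within each age, and rose by 1.30 ± 0.15 (adjusted p = 0.0109), 1.30 and 1.22 among the low-spike and the other arrays. Its second probe set was called as well, at 1.52, and the non-translating change was 0.17. Snhg4, a snoRNA host gene, gave 32.9, 24.7 and 31.3 and 120.1, 161 and 63.6 and rose by 1.83 ± 0.35 (adjusted p = 0.0299). It was the only called of 29 non-coding RNA genes. Of 41 genes of translation initiation and mTORC1, 0 were called in limma, with 6 higher and 6 lower at an unadjusted p under 0.05 (10.3% and 10.8% of all genes), and the median was -0.09.

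The genes that rose had short gene bodies and those that fell had long ones. The median span from first to last annotated base was 10.7 kb over the 183 called higher and 29.1 kb over the 184 called lower, against 22.5 kb over the 13752 genes at or above the filter level. With these genes in 5 bins of equal size by span, from shortest to longest, 60, 57, 33, 17 and 14 were called higher and 20, 30, 40, 40 and 46 lower. The median change of all genes in a bin stayed between -0.08 and 0.01. Promoters were read as the 250 bases before the start in the RefSeq windows of GRCm38.p6, and motifs were searched on both strands. A gene was counted where any of its windows held the motif, and shares are of the genes with a window. CCGGAAG, the ETS motif, was found for 24.8% of the genes called higher, 14.3% of those at or above the filter level and 11.8% of all genes tested. The NRF1 motif was found for 13.4%, 8.54% and 7.01%. Counted by window, in place of by gene, 6.91% of all 32851 windows held the ETS motif and 3.74% the NRF1 motif. The ETS motif was found for 39.0% of the cytosolic ribosomal protein list, 30.8% of the proteasome, 25.4% of the mitochondrial ribosomal proteins and 19.7% of the respiratory chain. In the same order, the NRF1 motif was found for 2.44%, 15.4%, 13.4% and 18.03%, so the first list was below the genes at or above the filter level and the others above them. A window was given for 85.8% of the genes called higher, and for 67.4% of those called lower, which is under 80% and voids the count there. All genes tested had one for 78.98%, also under 80%, so their shares are void as a comparison too. The genes at or above the filter level had one for 80.02%. A match is a string of letters and not a bound site. Both motifs are shown, in capitals, in the 100 bases before the start of Hspe1 (a pair of overlapping ETS matches, at 80 and 77 bases) and Eef1e1 (NRF1, at 84 bases), which rose, and Adgrb2 (NRF1, at 30 bases), which fell, so the NRF1 letters stood before genes of both directions (RefSeq, GRCm38.p6).
Hspe1 (chr1:55088048-55088147, plus strand): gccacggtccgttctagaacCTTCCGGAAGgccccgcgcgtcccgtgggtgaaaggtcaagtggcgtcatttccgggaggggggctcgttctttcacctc
Eef1e1 (chr13:38659029-38659128, minus strand): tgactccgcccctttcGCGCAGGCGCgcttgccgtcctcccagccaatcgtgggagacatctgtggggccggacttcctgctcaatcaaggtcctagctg
Adgrb2 (chr4:129984770-129984869, plus strand): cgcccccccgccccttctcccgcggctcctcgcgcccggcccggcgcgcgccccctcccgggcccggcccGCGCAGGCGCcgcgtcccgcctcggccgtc

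The 15 largest called falls included Gpc1, Thy1, Rtn4rl1, Pigt, Ngfr and Aplnr. The rule that chose these 15 took only genes whose ages did not overlap. Gpc1, a glypican that carries heparan sulfate chains on a membrane anchor of glycosylphosphatidylinositol (GPI), gave 2563, 2966 and 1854 at 1 dpp and 523, 695 and 605 at 4 dpp. Every 1 dpp array was far brighter than every 4 dpp array, and Gpc1 fell by 2.00 ± 0.24, or 4.00-fold (adjusted p = 0.0116), with -0.79 in the non-translating pool. Thy1, a GPI-anchored surface glycoprotein, went from 247, 177 and 134 to 46.6, 60.1 and 36.2 and fell by 1.93 ± 0.33 (adjusted p = 0.0262). Rtn4rl1, a GPI-anchored receptor of the Nogo receptor family, went from 840.2, 859.6 and 836 to 272, 193 and 315 and fell by 1.73 ± 0.26 (adjusted p = 0.0227). Pigt, a subunit of the transamidase that attaches the GPI anchor, went from 481, 344 and 478 to 184, 117 and 91.9 and fell by 1.77 ± 0.35 (adjusted p = 0.0311). Its change in the non-translating pool was 0.01. Ngfr, the low-affinity neurotrophin receptor, went from 203, 256 and 215 to 73.9, 64.8 and 70.1, tight within each age, and fell by 1.67 ± 0.25 (adjusted p = 0.0227), with -0.22 in the non-translating pool. Aplnr, the receptor for apelin, went from 1839, 2178 and 1271 to 368, 608 and 325 and fell by 2.04 ± 0.28 (adjusted p = 0.0197), and its second probe set was called too, at -0.98.

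Lists of adhesion genes and of glycosylation enzymes held few calls each. Of 24 integrin genes, 3 were called lower and 0 higher, with a median of -0.16. Itga4, an alpha chain that binds VCAM and fibronectin, went from 277, 468 and 142 to 68.5, 106 and 60.3, Itgb5 from 1929.8, 1709.8 and 1668 to 468, 755 and 629, and Itgb3 from 141, 151 and 109.8 to 48.6, 62.7 and 67.7. None of the 3 overlapped between ages, and they fell by 1.78 ± 0.39, 1.54 ± 0.27 and 1.16 ± 0.23. All 3 other probe sets of Itgb5 above the filter level were called lower as well. Of 10 glypicans and syndecans, Gpc1 and Sdc1, a syndecan, were called lower, with a median of -0.39 over the list. Sdc1 fell by 1.28 ± 0.23 (adjusted p = 0.0276). Of 22 adhesion G protein-coupled receptors, 2 were called lower and 20 were below 0, with a median of -0.30 (-0.45 and -0.50 among the low-spike and the other arrays). Adgrb2 fell by 1.71 ± 0.34 and Adgra2, a Wnt co-receptor of vessels, by 1.64 ± 0.29. Of 18 genes of mucin-type O-glycosylation, 2 were called lower, the GalNAc transferases Galnt10 (-1.58 ± 0.29) and Galnt2 (-1.53 ± 0.33). Of 42 semaphorins, plexins and ephrin receptors, which guide axons and cells, 0 were called in limma. At an unadjusted p under 0.05, 13 were lower (10.8% of all genes). In all 37 were below 0, and the median of -0.50 was the lowest of any list (-0.04 in the non-translating pool). Sema7a, a GPI-anchored semaphorin, had a change of -1.13 ± 0.29 (adjusted p = 0.0683). These 5 lists were drawn up after values had been seen, and over all genes 1.01% were called lower.

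Other genes among the largest falls encode enzymes, scaffolds and matrix proteins. Pnmt, which makes adrenaline from noradrenaline, went from 1304, 1275 and 859 at 1 dpp to 178, 399 and 207 at 4 dpp. It had the largest fall of the named genes, 2.20 ± 0.35 or 4.58-fold (adjusted p = 0.0235), and its other 2 probe sets had changes of -0.91 and -0.50, not called. St8sia2, a polysialyltransferase, went from 823, 1065 and 341 to 121, 279 and 122 and fell by 2.05 ± 0.43 (adjusted p = 0.0354). A second probe set was called too, at -1.95, and the low-spike array was the lowest of the 1 dpp arrays. Col23a1, a transmembrane collagen, went from 454, 526 and 421 to 132, 118 and 194 and fell by 1.68 ± 0.29 (adjusted p = 0.026), with both other probe sets called, at -2.59 and -1.78. Mmp16, a membrane-type metalloproteinase, fell by 1.83 ± 0.37 and had a like change in the non-translating pool (-1.78). Pcdh9, a protocadherin, fell by 2.04 ± 0.47, Lin7a, a PDZ scaffold of cell polarity, by 1.89 ± 0.34, and Pknox1, a TALE homeobox factor, by 1.72 ± 0.38. The second Pknox1 probe set had the opposite sign (0.15, not called).

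Signalling lists held few calls, where 1.01% of all genes were called in each direction. Of 64 growth factor and TGF beta family genes, 1 was called lower and 0 higher, 47 were below 0, and the median was -0.23 (-0.35 and -0.49 among the low-spike and the other arrays). The called gene, the receptor Fgfr1, went from 806, 866 and 545 to 248, 267 and 288 and fell by 1.44 ± 0.27 (adjusted p = 0.0293), with -0.06 in the non-translating pool. Of 20 let-7 targets and oncofetal RNA-binding proteins, 2 were called lower, Ccnd2 and Igdcc3, with a median of -0.45. Igdcc3, an immunoglobulin superfamily protein, fell by 1.48 ± 0.33 (adjusted p = 0.0439). Of 58 RNA-binding regulators of translation, 1 was called, the Argonaute Ago1 of the miRNA pathway. It went from 739, 608 and 627 to 289.8, 348 and 269, with no overlap, and fell by 1.12 ± 0.24 (adjusted p = 0.0365), with -0.19 in the non-translating pool. In limma 0 were called of 27 imprinted growth genes, 63 extracellular matrix genes, 20 glycolysis genes, 22 genes of retinoic acid metabolism and signalling, and 29 immediate early genes. At an unadjusted p under 0.05 in limma they held 9, 13, 3, 7 and 10 genes of either direction, in that order. Over all genes 10.3% were higher and 10.8% lower at that level. Their medians were 0.02, 0.24, -0.32, -0.01 and -0.21 in the same order of lists. The growth factor Igf2 gave 2143, 1382 and 3332 and 1133, 1287 and 983, which did not overlap (-0.93 ± 0.50, adjusted p = 0.394).

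Markers of the somatic cells showed few calls, where 1.01% of all genes were called in each direction. Of 35 Sertoli cell markers, 0 were called in limma, with a median of -0.08. At an unadjusted p under 0.05, 6 were higher and 8 lower (10.3% and 10.8% of all genes). Amh, the hormone that regresses the Müllerian duct, gave 182, 237 and 338 and 94.5, 126 and 187 and had a change of -0.90 ± 0.33 (adjusted p = 0.184), and Sox9, the Sertoli cell transcription factor, one of -0.08 ± 0.28 (adjusted p = 0.922), with 1.22, not called, on another probe set above the filter level. The list's summed signal was 35066 to 67769.6 at 1 dpp and 27516 to 83081 at 4 dpp, with both extremes at 4 dpp. Of 22 genes of Leydig cells and steroid synthesis, 1 was called lower, Scarb1, a receptor for high-density lipoprotein, which went from 3476, 3647 and 3314 to 1367, 2132 and 1642 (-1.04 ± 0.21, adjusted p = 0.0314). Star, which moves cholesterol into mitochondria, had a change of -0.96 ± 0.35, and the steroidogenic enzymes Cyp11a1 and Cyp17a1 had changes of 0.05 ± 0.49 and 0.59 ± 0.60. None of the 3 passed (adjusted p = 0.184, 0.975 and 0.696). Of 24 endothelial markers, 2 were called lower, Aplnr and the tight junction protein Cldn5, which went from 824, 766 and 477 to 266, 252 and 276 (-1.34 ± 0.27, adjusted p = 0.0325). In 9 of 24 (37.5%) the 4 dpp arrays all lay below the 1 dpp arrays, against 12.7% of all genes. The summed endothelial signal was 5331 to 5787 at 1 dpp and 2547 to 4140.0 at 4 dpp, which did not overlap, with 0 and 1 members under the filter level on all 3 arrays. Aplnr and Cldn5 are themselves in that sum, so its fall is not separate from theirs. The median change of the list was -0.15, and the list's part in the change of the called genes was not tested. Of 12 mesothelium markers, 1 was called lower, the IGF-binding protein Igfbp5 (-1.25 ± 0.26, adjusted p = 0.0365). That list's sum, which includes Igfbp5, was 2012 to 2369.7 and 996 to 1511, also without overlap. Its part in the fall of Igfbp5 was not tested.

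In limma 0 were called of 23 markers of peritubular and smooth muscle cells, 29 of macrophages, 19 of red cells, and 22 of the epididymis and rete. At an unadjusted p under 0.05 they held 8, 9, 1 and 8 genes of either direction, where 10.3% of all genes were higher and 10.8% lower. Acta2, smooth muscle actin, gave 6361, 5575 and 7936 at 1 dpp and 6466, 5752 and 10038 at 4 dpp, which overlapped (0.14 ± 0.22, adjusted p = 0.821). The summed signals were 23217 to 27294 and 21591 to 30004 for the muscle list, 4215 to 4926 and 3671 to 5823 for macrophages and 1665 to 1846 and 1474 to 1885 for red cells, at 1 and 4 dpp. All 3 overlapped between ages. The epididymis and rete list summed to 3625 to 4944 and 4712 to 10036, with 6 and 7 of 22 members under the filter level on all 3 arrays. Clu, the brightest Sertoli cell gene, gave 15114, 12629 and 16012 and 10543, 9327 and 15217. The labelled tissue was checked on such genes. The germ cell genes Ddx4 and Dazl, the Sertoli cell genes Clu and Sox9 and the Leydig cell genes Star and Cyp17a1 lay above the filter level on each of the 6 polysome arrays.

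The non-translating pool, measured on the other 6 arrays of the series, shares no array with the polysome pool. There 3 probe sets were called between the ages, and 1573 had an unadjusted p under 0.05. Of the 183 genes called higher on polysomes, 165 had a positive change in the non-translating pool, with a median of 0.31. Of the 184 called lower, 179 had a negative one, with a median of -0.36. Over all genes, 67.1% had the same sign in both pools. The interquartile range of the change over genes at or above the filter level was -0.36 to 0.45 on polysomes and -0.19 to 0.22 in the non-translating pool. Car3, Lmo1, Cox7b2 and Mmp16 had non-translating changes of 5.80, 1.62, 1.94 and -1.78, in the direction of their polysome changes. Fdps, Pigt, Fgfr1, Ndufs4 and Naca were near 0 there, at -0.14, 0.01, -0.06, 0.19 and 0.17, yet the difference between pools was called for Tex11 alone. For Naca that difference had an adjusted p of 0.82, for Asz1 of 0.124, and for each of the other named genes but Tex11 of 0.998 or more.

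**Figure D5:**
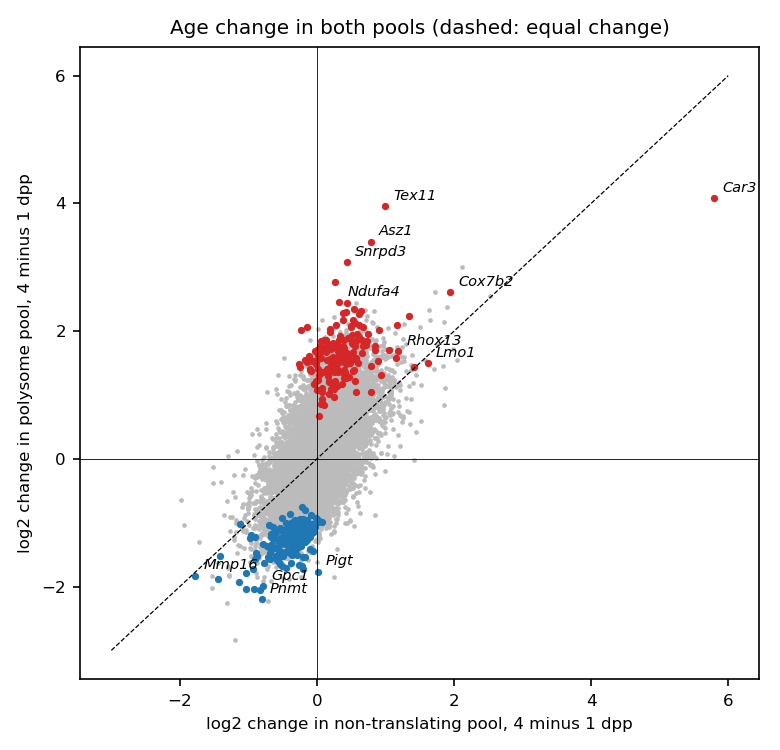
Change on polysomes against change in the non-translating pool (both log2, 4 dpp minus 1 dpp), a point for each gene, with the genes called higher on polysomes in red, those called lower in blue and the others in grey. The dashed line marks equal change. Most called genes lie farther from 0 on the polysome axis, while Car3 lies beyond the line on the non-translating side.

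Other probe sets of the called genes gave a check on the choice of the brightest. Of the 367 called genes, 171 had another probe set at or above the filter level. In 28 of these another was also called in the same direction, and in 52 at least 1 had the opposite sign. Of the 67 called genes named here, 36 had another such probe set, and in 6 (Car3, Snrpd3, Thyn1, Pknox1, Ccnd2 and Actb) at least 1 had the opposite sign. Another probe set of Rps9 had a change of 0.08 and another of Lsm8 one of 0.58, neither called. Actb, cytoplasmic beta actin, gave 10390.5, 9139 and 10716 at 1 dpp and 5372, 5769 and 4446 at 4 dpp on its brightest probe set and was called lower (-0.96 ± 0.17, adjusted p = 0.0263), while its other probe set had a change of 0.77 (adjusted p = 0.168). The 3′ over 5′ signal of the same gene differed between the ages, as given above. Scaling each array to 1 trimmed mean moved the median change of all probe sets from -0.05 to -0.17, and list medians are to be read against that shift. The median was then 0.81 for the respiratory chain, 0.08 for cytosolic ribosomal proteins and -0.63 for semaphorins, plexins and ephrin receptors.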

How the data were processed

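Heavy polysome and non-translating RNA of CD-1 testes at 1 and 4 dpp was measured on 12 Affymetrix mouse genome arrays, 4 groups of 3. The deposited values are linear signal intensities, 1 per probe set. The submitters' processing notes name MAS5. Its version and the scaling between arrays are not given in the sources used here. Every array's lowest signal was between 3.71 and 4.14, so a dim signal is not a level of 0, and the number of arrays limits the precision.

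A model with 4 groups was fitted to log2(signal + 1) of 45037 probe sets on all arrays (limma 3.58.1, R 4.3.3, eBayes with a variance trend), with Benjamini-Hochberg adjustment over all of them and calls at an adjusted p under 0.05. The script was tested on simulated data. In the platform annotation 34945 probe sets have 1 gene symbol, 932 several and 9160 none, and only the first were named. The filter level was the 40th percentile of mean log2 signal (4.12, or a signal of 16.4).

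Named genes were the 15 largest called changes in each direction above the filter level without overlap between groups, up to 4 called members of each list (or its 2 brightest where none was called) and a chosen set of germ cell and somatic genes. Clone-like symbols were left out. Rpl11, the other called list members given by name alone, and second probe sets were added to complete a count. The lists and this rule were written with earlier results of these data known, and the lists of mitochondrial ribosomal proteins, proteasome, Sm and Lsm proteins, O-glycosylation, integrins, glypicans and syndecans, adhesion receptors, and semaphorins, plexins and ephrin receptors after the values had been seen. The list of replication-dependent histones had 0 genes with a single-symbol probe set, and H19 had none.

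Alternatives covered scaling, pseudocount, filter, probe set choice, variance model, array weights, the arrays in the fit and blocks. Those without the low-spike arrays, with the 3′ over 5′ covariate, and, for the polysome comparison, without each non-translating array were added after the values had been seen.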

Additional observations from a re-analysis of the deposited data

Results flagged for a closer look

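Tex11 stood out because its age change differed between the pools by a test of the difference itself. The change on polysomes exceeded that in the non-translating pool by 2.97 ± 0.28 on the log2 scale (SE, 3 arrays per group, interaction term in limma, adjusted p = 0.00371). All 3 polysome arrays at 1 dpp and 1 non-translating array at that age lay under the filter level for dim probe sets, and with such signals raised to it the difference was 2.16, with no test. The difference was not called with the 3′ to 5′ difference of the Actb and Gapdh controls as a covariate. In each of the 4 groups 1 Tex11 signal equalled the mean of the other 2. The standard error and p-value of the difference thus do not rest on 3 independent values per group.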

How the results depend on the processing

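None of the 67 called genes named in the report changed direction under any of the 25 alternatives that tested it. The other calls were not checked for this, and the number of calls moved widely. The polysome calls (767, 432 higher and 335 lower) became 1189 (657 and 532) with quantile normalization, 1249 (716 and 533) with a common trimmed mean, 1350 (749 and 601) with a filter on dim probe sets, 1481 (663 and 818) without the variance trend, 15657 (7515 and 8142) with array weights, 1769 (849 and 920) with low spike level as a block, 2 (2 and 0) with the 6 polysome arrays alone, 35 (24 and 11) without the 3 low-spike arrays, and 3 (2 and 1) with the 3′ over 5′ covariate. With a pseudocount of 64 they were 386 higher and 428 lower, and with 1 probe set per gene above the filter 468 and 495, so the split between directions turned there, as it did without the trend, with array weights and with the spike block. Leaving out each array in turn gave 2 to 4376 calls, 2 to 2701 higher and 0 to 1675 lower. The filter leaves fewer probe sets to adjust over, and the 6 arrays alone leave fewer samples for the spread. For the other alternatives the cause was not tested.

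The non-translating calls (3) became 1 with the filter and with 1 probe set per gene, 0 without the trend and 3012 with array weights, and 0 to 1 without each non-translating array. The calls for the difference between pools (1) became 2 with 1 probe set per gene and without the trend, 5044 with array weights and 0 with the covariate, and 1 to 2 without each array.

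The labels number the replicates but do not say that a number marks a shared litter or day. The deviations of polysome arrays of the same number correlated at -0.33, 0.78 and 0.74 between the ages, and over all pairs of groups from -0.63 to 0.78, so the numbers were not taken to pair the arrays. With a replicate block 759 probe sets were called on polysomes (467 higher and 292 lower), 2 in the non-translating pool and 1 for the difference. Signals near the lowest value of an array limit what can be said of dim genes such as Pax7.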
